A study of Mus musculus with 12 samples.

Results

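The regions described here are the accessible sites at the ends of mouse genes named Zfp plus a number, such as Zfp13 or Zfp410. They were chosen by name and position: autosomal peaks whose midpoint lay within 1000 bp of either end of a protein-coding RefSeq gene with such a symbol. This gave 350 of the 68689 peaks, at 258 of the 360 autosomal Zfp-number genes. The other 102 genes had no peak within reach, and 5 X-linked peaks were left out. The class was proposed with the knockout result of these libraries in view, so its knockout values are a description and support nothing.

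The cells were splenic B cells of the germinal center, sorted from C57BL/6 mice aged 8 to 10 weeks. Open chromatin was mapped in them by Omni-ATAC-seq, an assay whose transposase inserts sequencing adapters where DNA is exposed. HOMO mice were Pbrm1-/- and WT mice were Pbrm1+/+. Pbrm1 encodes BAF180, a subunit found in the PBAF form of the SWI/SNF remodelers and not in the BAF form. Each genotype was sorted into 2 populations called CB and CC (letters that the labels do not explain), with 3 libraries in each of the 4 groups (HOMO CB, WT CB, HOMO CC and WT CC). The column names of the count table carry the prefix Pbrm1AID for HOMO and WT libraries alike, which the labels do not explain. The labels say neither how the allele was made nor whether different libraries are from different mice; p-values therefore measure the spread between libraries, which may be technical.

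Zfp symbols cover several kinds of zinc finger protein. Most encode arrays of C2H2 fingers, each a small zinc-bound fold that reads a few bases of DNA, and many of these also carry a KRAB domain. A KRAB domain recruits Trim28, which brings the histone H3 lysine 9 methyltransferase Setdb1 and silences transposable elements, and these genes often stand in tandem clusters that arose by duplication. Other members bind RNA, such as Zfp36, or act as general activators of promoters, such as Zfp143.

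The promoters below are shown because they span the accessible sites on which the accounts of lowered and of uncalled members turn. Each is the 250 bases before the gene's start, 5′ to 3′ on the gene's own strand, from RefSeq (GRCm38.p6). Capitals mark the motif letters that were searched: ACTACAA or its reverse complement TTGTAGT (the core of the Zfp143 site), CCAAT or ATTGG (NF-Y), and GGGCGG or CCGCCC (SP/KLF). Zfp58 lies at chr13:67500523-67500772 (minus strand), Zfp65 at chr13:67729174-67729423 (minus strand) and Zfp358 at chr8:3492888-3493137 (plus strand), and the peaks of all 3 were lower in HOMO. Zfp143 lies at chr7:110061452-110061701 (plus strand) and Zfp809 at chr9:22225462-22225711 (plus strand), and neither peak was called.
Zfp58: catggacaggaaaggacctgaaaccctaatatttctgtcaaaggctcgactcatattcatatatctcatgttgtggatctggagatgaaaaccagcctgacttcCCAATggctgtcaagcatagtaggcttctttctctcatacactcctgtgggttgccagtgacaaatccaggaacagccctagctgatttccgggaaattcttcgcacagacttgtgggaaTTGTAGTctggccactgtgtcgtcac
Zfp65: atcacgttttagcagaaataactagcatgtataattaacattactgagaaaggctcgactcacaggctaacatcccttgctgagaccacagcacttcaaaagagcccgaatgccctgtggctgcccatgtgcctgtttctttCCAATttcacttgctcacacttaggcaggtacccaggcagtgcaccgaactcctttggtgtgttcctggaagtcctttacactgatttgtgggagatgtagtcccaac
Zfp358: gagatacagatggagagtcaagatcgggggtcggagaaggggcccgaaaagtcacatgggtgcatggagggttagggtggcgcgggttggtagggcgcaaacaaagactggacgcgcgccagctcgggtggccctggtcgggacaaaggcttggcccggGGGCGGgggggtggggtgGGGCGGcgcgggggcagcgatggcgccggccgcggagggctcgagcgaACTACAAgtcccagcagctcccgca
Zfp143: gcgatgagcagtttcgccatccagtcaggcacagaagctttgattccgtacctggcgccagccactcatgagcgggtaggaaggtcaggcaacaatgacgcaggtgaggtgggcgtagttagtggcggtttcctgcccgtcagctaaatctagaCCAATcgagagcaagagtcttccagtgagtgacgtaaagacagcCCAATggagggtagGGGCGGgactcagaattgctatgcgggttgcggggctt
Zfp809: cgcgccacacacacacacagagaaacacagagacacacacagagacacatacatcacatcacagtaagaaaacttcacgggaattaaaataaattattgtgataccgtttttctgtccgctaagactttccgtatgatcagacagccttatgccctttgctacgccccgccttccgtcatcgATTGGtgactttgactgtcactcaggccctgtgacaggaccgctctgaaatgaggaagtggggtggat
The Zfp58 and Zfp358 windows each hold the Zfp143 letters close to the start of the gene, whereas those letters are not in the windows of Zfp65, Zfp143 and Zfp809.

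Sequence was compared over all members with a RefSeq promoter window, which holds 250 bases before and 50 after the start and exists for 301 of the 360 genes. The 213 Zfp genes with a peak at their start had a median GC content of 55.0% and 15 CpG dinucleotides per window. The 8340 other genes with a peak at the start had 61.7% and 22, and all 16457 autosomal promoters had 56.7% and 14. The SP/KLF letters were in 49.8% of the Zfp windows, against 67.8% of those of other genes with a start peak and 47.3% of all promoters. The NF-Y letters were in 47.9% of the Zfp windows, against 38.7% of those of other genes with a start peak and 38.9% of all promoters. Zfp starts with a peak were thus poorer in CpG and in SP/KLF letters than other starts with a peak.

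The Zfp143 letters were in 5 of 34 windows of Zfp genes whose start peak was called lower in HOMO CB or HOMO CC (14.7%), against 7 of 179 windows of the other Zfp genes with a start peak (3.91%) and 3.98% of all promoters. Other genes with a start peak had those letters in 4.51% of windows, and all Zfp genes with one in 5.63%. Of the other motifs searched, the ETS letters CCGGAAGT were in 9.86% of the Zfp windows, against 8.93% of other genes with a start peak and 5.46% of all promoters. The NRF1 letters were in 4.23%, against 2.23% and 1.36%, and the YY1 letters AAGATGG in 9.39%, against 7.18% and 6.42%. The CRE letters TGACGTCA were in 3.29%, against 3.57% and 2.42%, and the E-box letters CACGTG in 7.98%, against 10.6% and 7.96%. Both strands were searched for all 8 motifs, NRF1, CRE and E-box letters being their own reverse complements. These are counts of letters, which do not show binding, and the lowered genes were picked by their values.

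Mean accessibility of the 350 peaks ran from 1.31 to 136 CPM (counts per 1000000 counts of the library), with a median of 24.0 CPM, against 22.2 CPM for the 15331 other autosomal peaks at the ends of protein-coding genes. The weakest count of any member in any library was 5, and all 350 passed the filter on low counts. The strongest were at Zfp869 (136 CPM), Zfp687 (113 CPM) and Zfp654 (103 CPM). Of the genes, 175 had 1 peak, 67 had 2, 15 had 3 and 1 had 4, and 8 peaks served the ends of more than 1 Zfp gene. By the strand in the promoter table, 275 peaks were at a start, 16 at a stop and 59 at genes with no entry. A total of 47 lay within 1000 bp of another gene's end as well.

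Library totals in peaks ran from 6431354 to 45590454 counts, and both HOMO libraries numbered 1 (7679509 in CB and 6431354 in CC) were the shallowest of their groups. The WT libraries numbered 2 stood apart at 1 of 2 Xist peaks, with 0.458 CPM in CB and 0.782 CPM in CC, against 4.73 to 17.2 CPM in the other 10 libraries. At the second Xist peak they had 3.89 CPM in CB and 5.06 CPM in CC, against 4.88 to 9.39 CPM, so that WT CC replicate 2 overlapped the rest. Markers of germinal center B cells had gene-end peaks at 10 of 10 genes. Of markers of other cells, 2 of 8 T cell, 1 of 8 myeloid, 1 of 6 natural killer and 2 of 6 erythroid genes had one. The mouse genotype was not checked, since accessibility does not show whether a gene is deleted.

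In CB, 41 Zfp peaks at 40 genes were lower in HOMO than in WT at an adjusted p under 0.05 (edgeR's quasi-likelihood test, Benjamini-Hochberg over all 68689 peaks), and 0 were higher. The share called lower was 11.7%, against 9.22% of other gene-end peaks and 3.85% of all peaks, and the share called higher was 0.0%, against 0.267% of other gene-end peaks and 0.779% of all peaks. In CC, 28 peaks at 27 genes were lower and 0 higher, which is 8.0%, against 5.61% of other gene-end peaks and 2.17% of all peaks, and the shares called higher were 0.0%, 0.209% and 0.578%. Both shares of lower calls lie close to those of other gene ends, and the difference is not read as a property of Zfp genes. At an unadjusted p under 0.05, 7 peaks were higher in HOMO CB and 9 in HOMO CC, while DESeq2 called 1 and 2 higher and limma none.

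The median log2 fold change (HOMO over WT) was -0.18 in CB, with 265 of 350 peaks below 0 (75.7%), against -0.11 for other gene ends and 0.01 for all peaks. In CC the median was -0.13, with 240 below 0 (68.6%), against -0.07 for other gene ends and 0.02 for all peaks. After the median of other gene-end peaks of similar mean CPM was subtracted from each Zfp peak, the median was -0.05 in CB and -0.05 in CC. By library, the Zfp median so corrected was -0.009, -0.044 and -0.027 in HOMO CB and 0.021, 0.050 and -0.006 in WT CB (log2 CPM, as a deviation from each peak's mean). In CC it was 0.035, -0.037 and -0.053 in HOMO and 0.046, 0.033 and -0.003 in WT. HOMO libraries lay below WT libraries in CB, narrowly, and the genotypes overlapped in CC.

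Markers of other cell types that had a gene-end peak were mostly lower in HOMO as well, while defining genes such as Cd3e, Csf1r, Ncr1 and Gata1 had no such peak. The summed gene-end signal of T cell markers was 21.1 to 23.8 CPM in HOMO CB and 26.8 to 31.0 CPM in WT CB, while HOMO CC had 24.2 to 26.4 CPM and WT CC had 29.2 to 30.9 CPM. The myeloid marker with a peak gave 0.976 to 1.96 CPM in HOMO CB and 2.95 to 3.76 CPM in WT CB, while HOMO CC had 1.41 to 1.77 CPM and WT CC had 3.02 to 5.12 CPM. The erythroid sum was 8.84 to 10.2 CPM in HOMO CB and 11.5 to 16.3 CPM in WT CB, while HOMO CC had 7.82 to 8.72 CPM and WT CC had 10.6 to 12 CPM. The genotypes did not overlap at these 3 lists, of 2, 1 and 2 peaks, in either population. At single peaks, every HOMO library lay below every WT library at 25.8% of other gene ends in CB and 21.9% in CC. The natural killer marker with a peak gave 0.83 to 1.31 CPM in HOMO CB and 1.15 to 2.54 CPM in WT CB, while HOMO CC had 1.03 to 2.37 CPM and WT CC had 2.39 to 3.67 CPM. Germinal center B cell markers summed to 551 to 587 CPM in HOMO CB and 513 to 551 CPM in WT CB, while HOMO CC had 530 to 578 CPM and WT CC had 476 to 512 CPM. In CC the genotypes did not overlap at the natural killer marker either, nor at the germinal center sum, which was higher in HOMO. The part of these markers in the Zfp result was not tested. In sorted bulk cells, a smaller share of open cells and less opening per cell cannot be told apart.

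The size of the difference varied with how accessible a site was. Among the weakest Zfp peaks, 1 of 5 with a mean log2 CPM of 0 to 1 and 2 of 16 at 1 to 2 were called lower in HOMO CB, against 3.29% and 6.48% of other gene ends. At 2 to 3, 6 of 26 were called lower (23.1%) with a median of -0.53, against 17.4% and -0.29 for other gene ends of that level. At 3 to 4, 18 of 69 were lower (26.1%, median -0.39), against 19.3% and -0.29. At 4 to 5, 12 of 111 were lower (10.8%, median -0.21), against 9.89% and -0.16. At 5 to 6, 2 of 108 were lower (1.85%, median -0.06), against 2.38% and -0.05, and at 6 to 7 none of 14 was by edgeR, DESeq2 or limma, with 2 of them at an unadjusted p under 0.05. In CC the medians of Zfp and other peaks were -0.64 and -0.29 at 2 to 3, -0.34 and -0.25 at 3 to 4, and -0.00 and 0.01 at 5 to 6. Most of the lowered Zfp sites were thus of low or middling accessibility: 39 of 41 in CB and 27 of 28 in CC had a mean log2 CPM under 5, as had 227 of all 350.

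**Figure D1:**
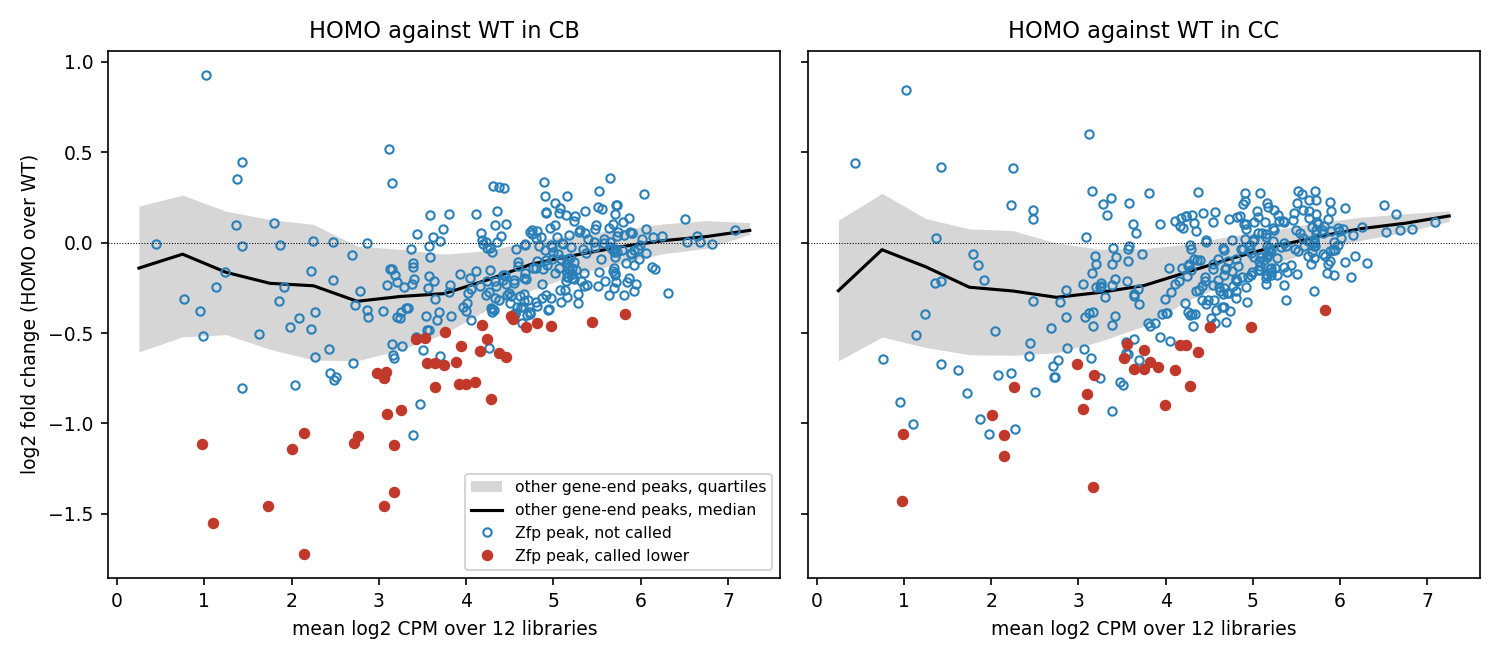
Log2 fold change of each Zfp gene-end peak (HOMO over WT, vertical axis) against its mean log2 CPM over 12 libraries (horizontal axis), in CB (left) and CC (right). Filled points are the 41 and 28 peaks called lower. The line and band are the median and quartiles of other gene-end peaks in level bins, whose median lies below 0 at low and middling levels and is 0.02 in CB and 0.08 in CC at a log2 CPM of 6 to 7.

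Within genes, the weakest peak more often had the lower value, a comparison made without correction for level. At 78 genes with several peaks, the weakest peak had a lower log2 fold change than the strongest at 51 genes in CB and 58 in CC, with medians of -0.20 for the weakest and -0.07 for the strongest in CB and -0.22 and -0.04 in CC. Less the median of other gene-end peaks of similar level, all 94 weaker peaks had medians of 0.0 in CB and -0.05 in CC. The strongest peaks of these genes had -0.03 in each. These medians do not pair the peaks of a gene, and the difference was not tested. Zfp410, an activator known for controlling the nucleosome remodeler gene Chd4, is an example of a lower value at the weaker of a pair of adjacent peaks. Its weaker peak (chr12:84317094-84317594) had 14.7, 13.9 and 12.4 CPM in HOMO CB and 24.5, 21.8 and 22.9 CPM in WT CB, while HOMO CC had 16.1, 12 and 11.5 CPM and WT CC had 20.9, 22.2 and 19.7 CPM. HOMO lay below WT throughout, with log2 fold changes of -0.77 ± 0.14 (SE, adjusted p = 0.00434, edgeR) in CB and -0.70 ± 0.14 (adjusted p = 0.0128, edgeR) in CC. The stronger peak, shared with the end of Ptgr2, gave -0.30 ± 0.12 (adjusted p = 0.158, edgeR) in CB and -0.42 ± 0.12 (adjusted p = 0.0605, edgeR) in CC, and was called in neither.

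Of the 46 peaks lowered in either population, 23 were called in both, which is 56.1% of the CB calls and 82.1% of the CC calls, against 46.6% and 76.6% for other gene ends. All 18 peaks called in CB and not in CC were also below 0 in CC (-1.0 to -0.12), and all 5 called in CC and not in CB were below 0 in CB (-0.52 to -0.23). Of all members, 68.6% were below 0 in CC and 75.7% in CB. No such share was taken for other gene ends called in 1 population. Same-numbered CB and CC libraries deviated together, so neither population is an independent check on the other. The difference of the HOMO effect between CC and CB was called at 0 Zfp peaks and at 0 of all 68689 peaks (0.0%) by edgeR, at 4 Zfp peaks at an unadjusted p under 0.05, and at 0 by DESeq2 and by limma. The peaks of smallest p were those of Zfp638 (difference 0.31) and Zfp658 (0.48) among positive values, and Zfp932 (-0.97) and Zfp457 (-0.42) among negative ones, each at an adjusted p of 1.0 (edgeR). In 61 peaks (17.4%) every HOMO library lay below every WT library in both populations, against 14.0% of other gene ends and 6.08% of all peaks. In CB 124 did so (35.4%), against 25.8% of other gene ends and 13.2% of all peaks, and in CC 94 (26.9%), against 21.9% and 11.2%. Every HOMO library lay above every WT library at 7 Zfp peaks in CB (2.0%, against 3.71% of other gene ends and 10.3% of all peaks) and at 16 in CC (4.57%, against 5.41% and 9.81%).

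**Figure D2:**
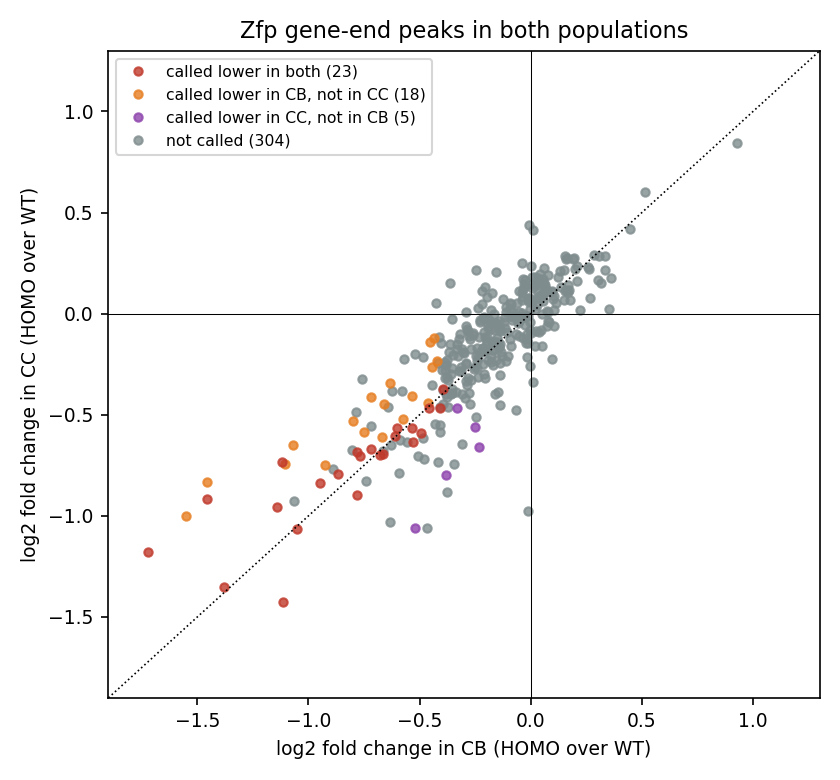
Log2 fold change (HOMO over WT) of the 350 Zfp gene-end peaks in CB (horizontal axis) and in CC (vertical axis), coloured by call, with the line of equal change dotted. The 23 peaks called in both populations, the 18 called in CB alone and the 5 called in CC alone all lie below 0 on both axes.

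The member of smallest p in both populations was at the start of Zfp13, a zinc finger gene on chromosome 17 (peak at chr17:23598844-23599344). It had 5.63, 5.48 and 5.99 CPM in HOMO CB and 15.8, 12 and 16.4 CPM in WT CB. In CC it had 4.44, 6.07 and 5.73 CPM in HOMO and 11.9, 13.9 and 16.7 CPM in WT. The lowest WT library was above the highest HOMO library, and the log2 fold change was -1.38 ± 0.18 in CB (adjusted p = 0.000738, edgeR) and -1.35 ± 0.18 in CC (adjusted p = 0.00191, edgeR). Both calls held when any 1 library was left out, with adjusted p of 0.0129 at most in CB and 0.0221 in CC. The weaker peak of Zfp13 (2.66 CPM) gave -0.02 in CB and -0.21 in CC, the reverse of the order at most genes with several peaks.

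Zfp358 and Zfp65, whose promoters are printed above, were lowered in both populations, with lower values in CB, although the difference between populations was not called. The Zfp358 peak had 6.81, 3.72 and 4.22 CPM in HOMO CB and 12.8, 11.3 and 13.4 CPM in WT CB, while HOMO CC had 9.02, 5.32 and 5.76 CPM and WT CC had 13.2, 10.2 and 12.7 CPM. Its log2 fold change was -1.46 ± 0.22 (adjusted p = 0.00139, edgeR) in CB and -0.92 ± 0.22 (adjusted p = 0.0261, edgeR) in CC, with no overlap of libraries in either. The Zfp65 peak, a weak site, had 3.80, 1.63 and 1.77 CPM in HOMO CB and 7.81, 6.18 and 6.6 CPM in WT CB, while HOMO CC had 5.47, 2.53 and 2.56 CPM and WT CC had 5.67, 8.06 and 7.59 CPM. It gave the lowest fold change of all members in CB, -1.72 ± 0.30 (adjusted p = 0.00403, edgeR), and -1.18 ± 0.29 (adjusted p = 0.0342, edgeR) in CC. The HOMO libraries numbered 1 were the highest of their groups at both genes, and without HOMO CB replicate 2 the Zfp65 peak missed the threshold in CB (adjusted p = 0.0618, edgeR), as it did in CC without HOMO CC replicate 2 (adjusted p = 0.257).

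Zfp329 was lowered at its stop end, one of 2 stop-end peaks called, the other being at Zfp628, called in CB alone. Of 16 Zfp stop-end peaks, 2 were called lower in CB and 1 in CC, against 26 and 15 of 1388 at other genes. This difference was not tested. The stronger start peak of Zfp329 gave -0.35 in CB and -0.20 in CC, and that of Zfp628 gave 0.22 and 0.02, none of them called. The Zfp329 stop-end peak had 4.85, 4.64 and 5.72 CPM in HOMO CB and 11.3, 11.3 and 10.7 CPM in WT CB, while HOMO CC had 8.28, 8.01 and 8.53 CPM and WT CC had 13.4, 14.3 and 13.5 CPM. Its log2 fold change was -1.12 ± 0.15 (adjusted p = 0.000876, edgeR) in CB and -0.73 ± 0.15 (adjusted p = 0.0146, edgeR) in CC. The median over all 16 stop-end peaks was 0.01 in CB and -0.04 in CC, against -0.20 and -0.12 over 275 start-end peaks. Other genes gave 0.06 and 0.08 over 1388 stop-end peaks, against -0.13 and -0.08 over 10856 start-end peaks.

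Single peaks at Zfp623, Zfp276, Zfp870, Zfp647 and Zfp850 were lower in both populations. Their log2 fold changes were -0.78, -0.87, -0.95, -0.60 and -0.78 in CB, and -0.69, -0.79, -0.84, -0.57 and -0.90 in CC. The Zfp623 peak averaged 11 ± 0.951 CPM in HOMO CB and 19 ± 1.01 CPM in WT CB, while HOMO CC had 12.2 ± 0.445 CPM and WT CC had 19.8 ± 0.659 CPM (SD, n = 3 each). The Zfp276 peak, which lies also at the end of Vps9d1 so that the gene it serves cannot be told apart, averaged 14.9 ± 1.60 CPM in HOMO CB and 26.7 ± 1.94 CPM in WT CB, while HOMO CC had 14.7 ± 3.58 CPM and WT CC had 24.6 ± 2.17 CPM. The strongest peak of Zfp276 (35.8 CPM) gave only -0.17 in CB and -0.18 in CC, and its weakest (6.75 CPM) -0.34 and -0.74. Zfp931 (-1.05 in CB and -1.06 in CC) was lowered likewise, and Zfp365, known in human as a gene of the DNA damage response, was lowered in CB (-1.46 ± 0.27, adjusted p = 0.00531, edgeR) but missed the threshold in CC (-0.83 ± 0.25, adjusted p = 0.0756).

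Of the 13 CB calls among the peaks chosen by the naming rule, 6 held whichever library was left out (Zfp13, Zfp276, Zfp329, Zfp358, Zfp410 and Zfp623), and of the 12 CC calls only that of Zfp13 did. The counts rest on single libraries as well. In CB, 7 peaks were called lower without HOMO CB replicate 2, 15 without HOMO CB replicate 3 and 16 without WT CB replicate 1. In CC, 1 was called without HOMO CC replicate 2, 2 without HOMO CC replicate 3, 5 without WT CC replicate 1, 7 without WT CC replicate 2 and 16 without WT CC replicate 3. By contrast 49 CC peaks were called without HOMO CC replicate 1 and 44 without HOMO CB replicate 1. Without both shallow HOMO libraries numbered 1 the counts were 68 in CB and 65 in CC, and without both WT libraries numbered 2 they were 23 and 3, while the medians stayed between -0.19 and -0.15 in CB and between -0.15 and -0.10 in CC over all alternatives.

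**Figure D3:**
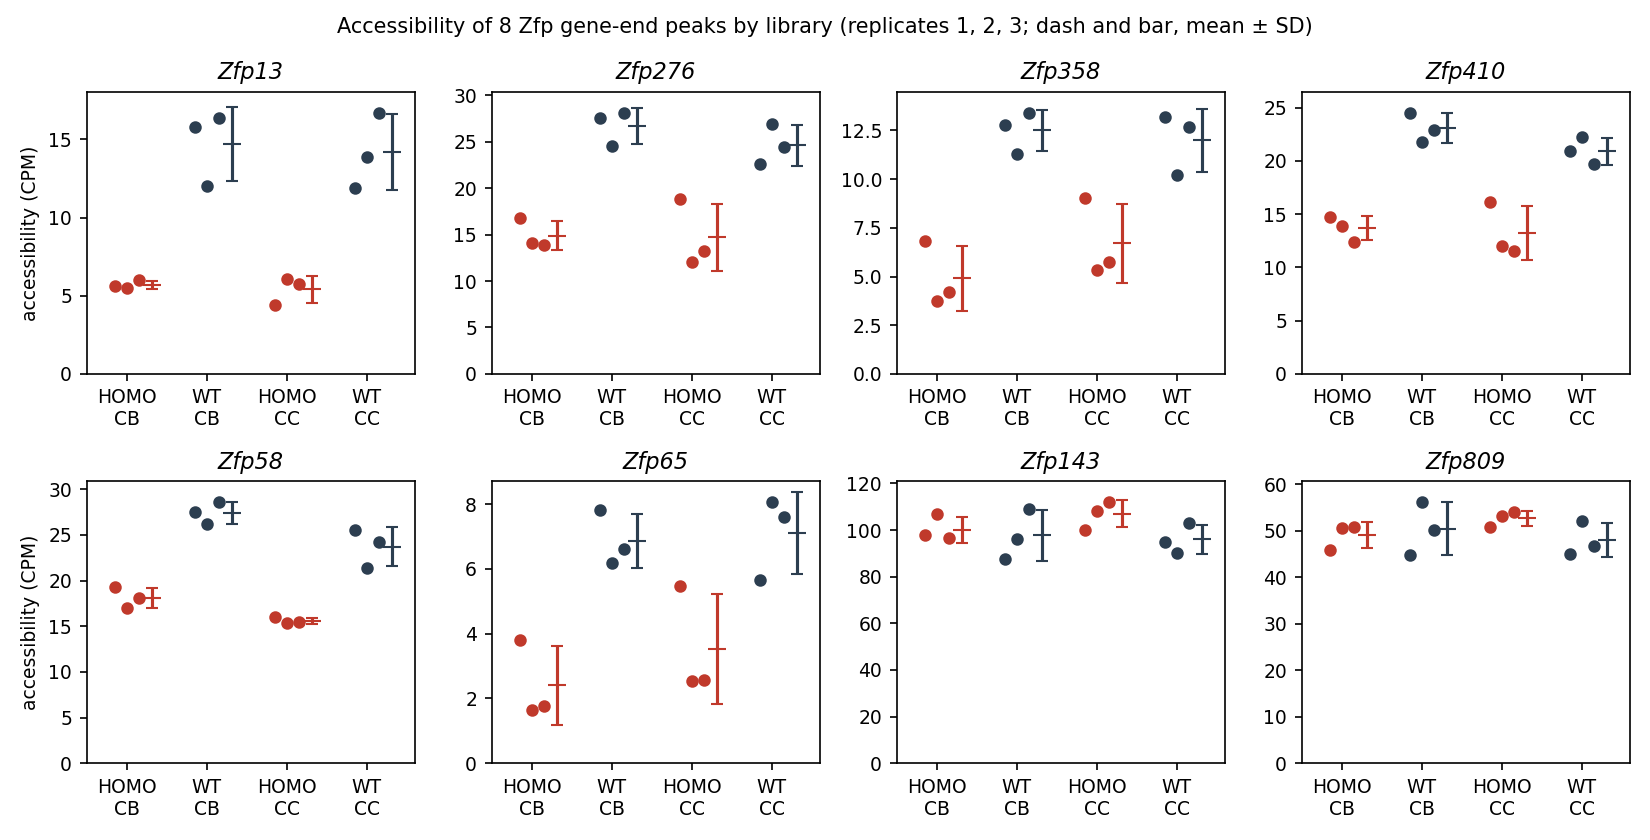
Accessibility in CPM (vertical axis, from 0) of 8 Zfp gene-end peaks in each library, with HOMO in red and WT in dark blue, points for replicates 1 to 3 and a dash with a bar for mean ± SD. At Zfp13, Zfp276, Zfp358, Zfp410, Zfp58 and Zfp65 every HOMO library lies below every WT library of its population, and at Zfp143 and Zfp809 the groups overlap.

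No member was called higher, and the nearest were Zfp574 and Zfp710. The Zfp574 peak had 10.3, 10.7 and 9.30 CPM in HOMO CB and 7.85, 6.64 and 6.63 CPM in WT CB, a log2 fold change of 0.52 ± 0.17 (adjusted p = 0.0841, edgeR). In CC it gave 0.60 ± 0.17 (adjusted p = 0.0579, edgeR). The Zfp710 peak gave 0.28 ± 0.08 (adjusted p = 0.0566, edgeR) in CB and 0.29 ± 0.09 (adjusted p = 0.0707, edgeR) in CC, with every HOMO library above every WT library in both.

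Of the members on a fixed list of 16 genes with described roles, Zfp13 alone was called at its strongest site. Zfp143, an activator that binds promoters and takes part in chromatin loops, had 98.1, 107 and 96.4 CPM in HOMO CB and 87.4, 96.2 and 109 CPM in WT CB. Zfp809, which silences murine leukemia virus by binding its primer binding site, had 46.0, 50.7 and 50.9 CPM in HOMO CB and 44.9, 56.2 and 50.3 CPM in WT CB. The groups overlapped at both, with log2 fold changes of 0.04 ± 0.09 and -0.03 ± 0.10 (adjusted p = 0.856 and 0.917, edgeR). In CC the values were 0.16 ± 0.09 for Zfp143 and 0.14 ± 0.10 for Zfp809 (adjusted p = 0.394 and 0.497, edgeR).

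The RNA-decay factor Zfp36 has 2 peaks of 37.9 CPM, of which the one at its stop gave 0.15 in CB and 0.07 in CC and the one at its start -0.20 ± 0.13 (adjusted p = 0.428, edgeR) and 0.08 ± 0.13 (adjusted p = 0.812, edgeR). Log2 fold changes in CB and CC of the ubiquitin ligase Zfp91 were 0.19 and 0.27, and those of Zfp207, a spindle protein that binds Bub3, -0.04 and 0.11. Zfp318, which B cells need for IgD expression, gave 0.26 and 0.22, Zfp281, a factor of pluripotent cells, 0.02 and -0.16, Zfp292 0.00 and 0.13, and Zfp335, which T cell development needs, -0.09 and 0.05. Zfp266 gave -0.37 (adjusted p = 0.0598, edgeR) and -0.19, and the KRAB repressors Zfp568, known for silencing a placental Igf2 transcript, and Zfp932, known for silencing retroelements, gave -0.26 and -0.10, and -0.39 and -0.24. None of these passed the test in either population. Zfp57 and Zfp217 had no gene-end peak.

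Values varied between tandem clusters, but no difference between clusters, or between clustered and other genes, was tested. Of the 360 genes, 226 lay within 200000 bp of another Zfp-number gene, in 51 clusters. Clustered genes held 201 of the peaks, 28 lower in HOMO CB (13.9%, median -0.22) and 19 in HOMO CC (9.45%, median -0.15). Genes outside clusters held 149 peaks, 13 lower in CB (8.72%, median -0.14) and 9 in CC (6.04%, median -0.09). Other gene ends, clustered or not, had 9.22% lowered with a median of -0.11 in CB, and 5.61% with -0.07 in CC. The following accounts of clusters with at least 8 peaks, like the split by CpG, were chosen after their values were seen and carry no test.

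The cluster at chr13:67038594-67827000 holds 19 Zfp genes, 14 of them with a peak, and the gene Rsl1. It is the Rsl locus, known for KRAB zinc finger regulators of sex-biased liver genes. All of its 15 Zfp peaks were below 0 in both populations, against 68.9% of other gene ends in CB and 61.9% in CC. The median was -0.44 in CB and -0.44 in CC, and -0.26 and -0.21 after the level was taken into account. In CB, 5 were called lower (Zfp65 -1.72, Zfp493 -0.68, Zfp429 -0.66, Zfp58 -0.61 and Zfp748 -0.46), and in CC 4 (Zfp65 -1.18, Zfp493 -0.70, Zfp457 -0.66 and Zfp58 -0.61). These are 33.3% and 26.7%, against 9.22% and 5.61% of other gene ends. The cluster's peaks were weak, with a median mean log2 CPM of 3.96. Among other gene ends at a mean log2 CPM of 3 to 4, 19.3% were called lower in CB and 13.3% in CC. At that level, 80.3% of other gene ends were below 0 in CB and 78.7% in CC. Zfp273 (-0.11 and -0.09) and Zfp87 (-0.14 and -0.16) were closest to 0 over both.

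Zfp58, an Rsl family member, had 19.3, 17 and 18.1 CPM in HOMO CB and 27.5, 26.2 and 28.6 CPM in WT CB, while HOMO CC had 16.0, 15.4 and 15.5 CPM and WT CC had 25.5, 21.4 and 24.2 CPM. HOMO lay below WT throughout, and the log2 fold change was -0.61 ± 0.11 (adjusted p = 0.00588, edgeR) in CB and -0.61 ± 0.12 (adjusted p = 0.0110, edgeR) in CC. Without HOMO CB replicate 2 the CB value missed the threshold (adjusted p = 0.0640), as did that in CC without HOMO CC replicate 2 (adjusted p = 0.101, edgeR). The other 16 peaks within the cluster, which are not at the ends of Zfp-number genes, were below 0 at 13 sites in CB and 12 in CC, with medians of -0.25 and -0.21 and with 2 and 1 called lower. Of these 16, 5 lie at ends of Rsl1, Zfp729a, Zfp729b and Zfp874a, 4 of them below 0 and 0 called by edgeR in each population. Of all peaks, 49.0% were below 0 in CB and 46.3% in CC, and 3.85% and 2.17% were called lower.

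The cluster at chr17:32765496-33110707, with 10 peaks at 7 genes, had medians of -0.38 in CB and -0.40 in CC, and -0.23 and -0.23 less level. Of its 10 peaks, 3 were called lower in CB and 2 in CC, against 9.22% and 5.61% of other gene ends. Its lowered sites were at Zfp870 (a weaker peak at -0.95 and -0.84, and a stronger one at -0.46 and -0.47) and, in CB, at Zfp799 (-0.80). The cluster's 11 other peaks had medians of 0.04 in CB and -0.17 in CC, with 2 called lower in CB and 0 in CC by edgeR. Of all peaks, 3.85% were called lower in CB and 2.17% in CC. The cluster at chr17:21383707-22456689, with 15 peaks at 14 genes such as Zfp51, Zfp52 and Zfp54, had 0 called in both populations by edgeR, DESeq2 and limma, and medians of -0.21 and -0.13, and 0.01 and -0.02 less level. Of its peaks, 3 had an unadjusted p under 0.05 in each population.

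On chromosome 7, the cluster of Zfp568, Zfp30 and Zfp420 (15 peaks) had medians of -0.24 in CB and -0.10 in CC. Zfp30 (-1.07) and Zfp420 (-0.42) were lowered in CB (13.3% of its peaks) and Zfp940 (-0.47) in CC (6.67%). The cluster of Zfp628 and Zfp524 (9 peaks) had medians of 0.15 and 0.02 with Zfp628 lowered in CB (11.1%). That of Zfp553 and Zfp689 (10 peaks) had -0.20 and -0.19 with Zfp553 lowered in CC (10.0%). Other gene ends had 9.22% lowered in CB and 5.61% in CC. On chromosome 6, the cluster of Zfp777 and Zfp398 (10 peaks) had medians of 0.01 and -0.03 and no call by edgeR, DESeq2 or limma, with 1 peak at an unadjusted p under 0.05 in each population.

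**Figure D4:**
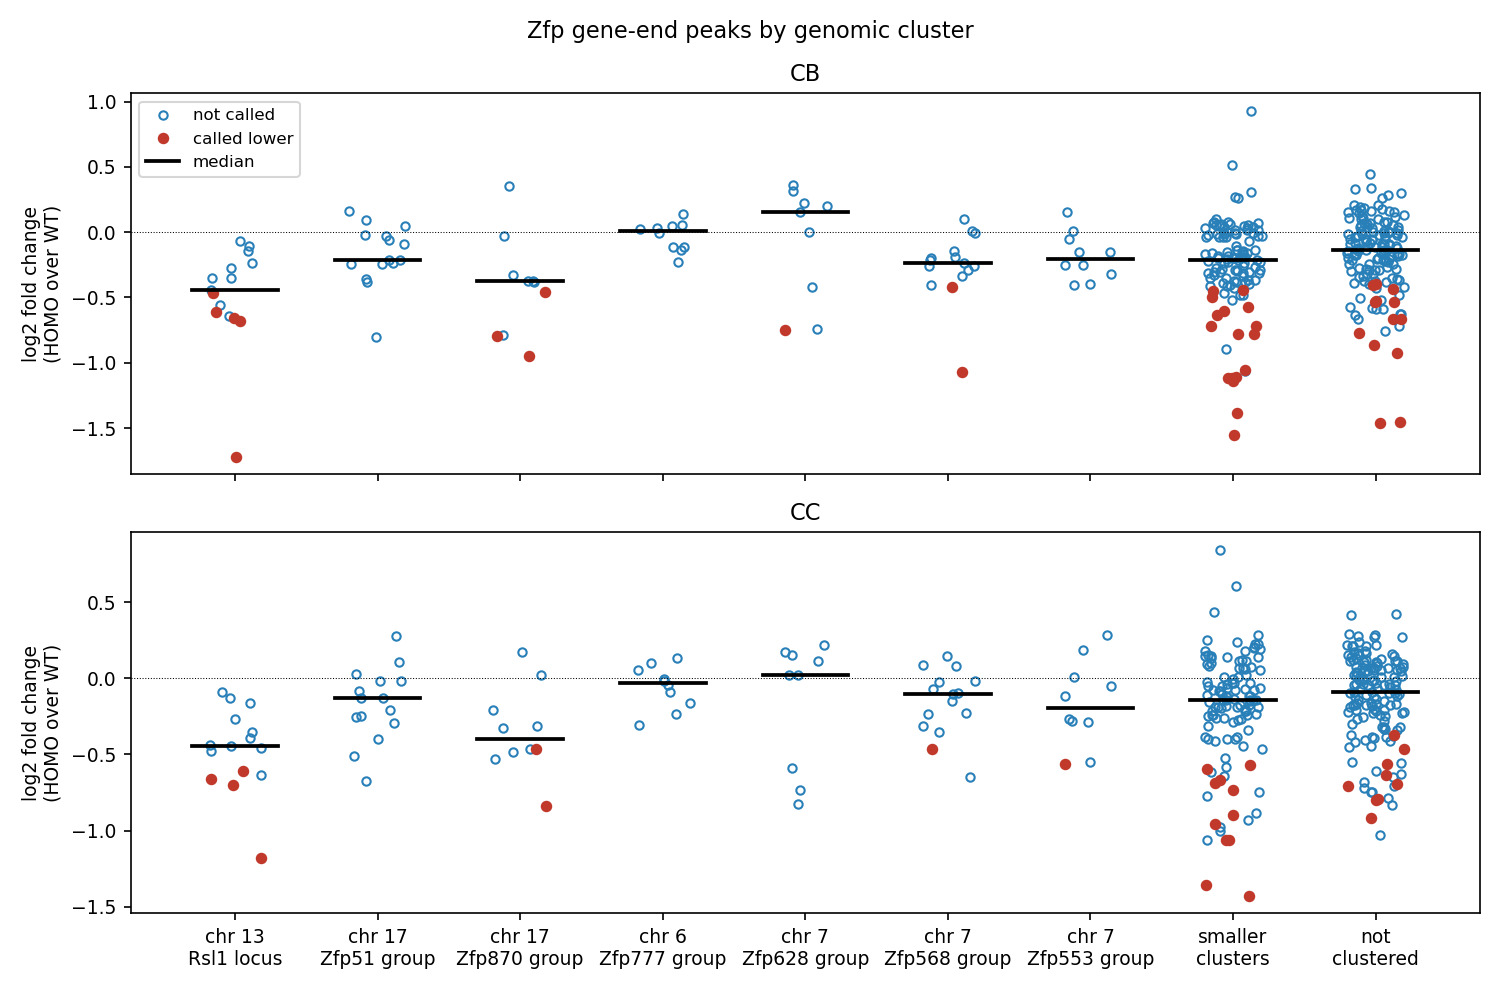
Log2 fold change (HOMO over WT, vertical axis) of Zfp gene-end peaks by genomic cluster, in CB (top) and CC (bottom). Filled points were called lower and bars are medians: the chromosome 13 Rsl1 locus has a median of -0.44 in both populations, and the Zfp777 group on chromosome 6 has 0.01 and -0.03.

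Split by CpG content, Zfp start peaks with 0 to 9 CpG in their window had medians of -0.21 in CB and -0.13 in CC over 67 peaks, against -0.11 and -0.06 over 1351 peaks of other genes. With 10 to 19 CpG the medians were -0.23 and -0.13 over 109 Zfp peaks, against -0.15 and -0.10 over 2938. With 20 or more they were -0.14 and -0.05 over 99 Zfp peaks, against -0.12 and -0.07 over 6567. The gap between Zfp and other starts was thus wider at CpG-poor windows. Less level, the medians with 0 to 9 CpG were -0.07 in CB and -0.05 in CC, against 0.05 and 0.05 for other genes. With 20 or more they were -0.02 and -0.03, against -0.02 and -0.02. The shares called lower with 0 to 9 CpG were 14.9% in CB and 8.96% in CC, against 8.96% and 4.66%. With 20 or more they were 8.08% and 6.06%, against 10.2% and 6.24%. With 10 to 19 CpG, 12 of 109 were called in CB, against 312 of 2938, and 4.59% in CC, against 6.64%.

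Gene families related by name are set against other gene ends, of which 9.22% were lowered in CB (median -0.11) and 5.61% in CC (median -0.07). No difference of a family from other gene ends was tested. Zbtb genes, which join zinc fingers to a BTB domain, had 50 gene-end peaks with 4 (8.0%) lowered in CB and 2 (4.0%) in CC, and medians of -0.01 and -0.03. Genes with the symbol Klf or Sp plus a number, matched by name alone whatever their protein, had 39 with 1 (2.56%) and 0 lowered by edgeR, and medians of 0.04 and 0.11. Zscan genes, with a SCAN domain, had 15 with 1 (6.67%) and 0 lowered and medians of -0.29 and -0.21, and Zkscan genes 8 with 1 (12.5%) and 0 lowered and medians of -0.32 and -0.10. Zc3h genes, whose fingers bind RNA, had 25 with 3 (12%) and 2 (8.0%) lowered, 1 higher in CC, and medians of -0.02 and 0.02. Zfhx and Zeb genes had 4 with 0 and 1 lowered. Zfp symbols with letters after the number had 30 with 3 lowered in each population (10.0%) and medians of -0.21 and -0.15.

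Genes of the machinery with which KRAB proteins silence DNA were examined from a list of 30. Of these, 21 had autosomal gene-end peaks, 40 in all, of which 2 were lower in HOMO CB (5.0%, against 9.22% of other gene ends) and 1 in HOMO CC (2.5%, against 5.61%). The medians were -0.06 and -0.00, against -0.11 and -0.07, and at so few peaks these gaps are not read as a result. The lowered sites were a weaker peak of Dnmt3b, a DNA methyltransferase (-1.0 in CB, adjusted p = 0.0131, edgeR), and a peak of the deacetylase Hdac2 (-0.49 in CB and -0.51 in CC, adjusted p = 0.0339 and 0.0375, edgeR). The 3 peaks of Trim28 gave 0.17, -0.33 and -0.24 in CB and 0.08, -0.19 and -0.16 in CC, and that of Setdb1 0.21 and 0.09, none of them called.

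CC was set against CB within each genotype, a contrast that the choice of Zfp genes did not use. In HOMO, 8 Zfp peaks differed (2.29%, against 1.98% of other gene ends and 7.22% of all peaks), 2 of them lower and 6 higher in CC. These are 0.571% lower and 1.71% higher, against 0.861% and 1.12% of other gene ends and 2.44% and 4.78% of all peaks. In WT, 2 differed (0.571%, against 1.42% of other gene ends and 5.43% of all peaks). Of these, 1 was lower and 1 higher (0.286% each), against 0.854% and 0.561% of other gene ends and 2.08% and 3.35% of all peaks. The median log2 fold change (CC over CB) was -0.04 in HOMO and -0.09 in WT, against -0.05 and -0.09 for other gene ends. The HOMO count was 3 without HOMO CB replicate 3, 4 without HOMO CB replicate 2, and 5 without HOMO CC replicate 1 or HOMO CC replicate 2. The WT count was 0 without WT CB replicate 1 or WT CC replicate 1, 4 without WT CC replicate 3, and 1 without HOMO CB replicate 2 or 3, HOMO CC replicate 2, WT CB replicate 2 or WT CC replicate 2.

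Same-numbered CB and CC libraries of a genotype deviated together, and with genotype and number as a block the counts were 44 in HOMO (12.6%, 30 lower and 14 higher in CC) and 57 in WT (16.3%, 51 lower and 6 higher in CC). Other gene ends gave 12.5% and 18.1% in that fit, and all peaks 22.2% and 22.1%. A total of 18 Zfp peaks was called in both genotypes, 40.9% of the HOMO and 31.6% of the WT calls, against 49.6% and 34.3% for other gene ends. All 18 had the same direction in HOMO and WT, as had all 952 such peaks at other gene ends.

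Zfp710 was lower and Zfp330 higher in CC than in CB in both genotypes. The Zfp710 peak had 44.7, 45.3 and 44.6 CPM in HOMO CC and 54.5, 59.4 and 56.9 CPM in HOMO CB, and 35.4, 38.1 and 36.7 CPM in WT CC and 48.6, 46.2 and 45.9 CPM in WT CB. CC lay below CB in each genotype, at -0.35 ± 0.08 in HOMO (adjusted p = 0.0140, edgeR) and -0.35 ± 0.09 in WT (adjusted p = 0.0182, edgeR). The Zfp330 peak had 13.8, 10.2 and 9.51 CPM in HOMO CC and 6.02, 6.89 and 6.28 CPM in HOMO CB, and 12.1, 14.6 and 11.9 CPM in WT CC and 8.93, 8.36 and 8.52 CPM in WT CB. It gave 0.75 ± 0.17 in HOMO (adjusted p = 0.00867, edgeR) and 0.58 ± 0.17 in WT (adjusted p = 0.0452, edgeR). The Zfp710 calls were lost without HOMO CB replicate 2 in HOMO (adjusted p = 0.0768, edgeR) and without WT CB replicate 1 in WT (adjusted p = 0.0813), and those of Zfp330 without HOMO CB replicate 3 (adjusted p = 0.0516) and without WT CC replicate 2 (adjusted p = 0.203).

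In HOMO, Zfp667 was higher in CC by 0.43 ± 0.10 (adjusted p = 0.00898, edgeR), with 58.4, 59.9 and 64.0 CPM in HOMO CC and 38.8, 46.8 and 48.5 CPM in HOMO CB, and this call held whichever library was left out. Zfp329 was higher by 0.69 ± 0.16 (adjusted p = 0.00846, edgeR) and Zfp553 lower by -0.51 ± 0.14 (adjusted p = 0.0320, edgeR), its end being shared with Septin1, and each was lost without HOMO CB replicate 2 (adjusted p = 0.0587 and 0.113). Nearest the threshold in WT were Zfp568 (-0.33, adjusted p = 0.0605, edgeR) and Zfp853 (0.88, adjusted p = 0.0880), which were not called. With the block Zfp568 was called in WT, at -0.32 ± 0.07 (adjusted p = 0.000759, edgeR).

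At the distance limit of 1000 bp, the members just inside, at Zfp704, Zfp746, Zfp654 and Zfp710 (998 to 987 bp), had log2 fold changes of -0.38, 0.02, -0.14 and 0.16 in CB. The peaks just outside, at Zfp287, Zfp239, Zfp638 and Zfp365 (1015 to 1028 bp), had 0.22, -0.66, -0.91 and -0.69. Of 91 peaks beyond 1000 and up to 2000 bp away, 8 were called lower in CB (8.79%) and 5 in CC (5.49%), close to the 9.22% and 5.61% of other gene ends.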

How the data were processed

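The authors deposited a table of raw counts per peak for 12 Omni-ATAC-seq libraries on mm10. BWA, FastQC, deepTools and R 4.2.1 are listed, with no roles, per the submitters' processing notes. How peaks were called, counted and pooled, and how duplicates were treated, is not stated there. The table holds whole numbers in 68689 peaks of 501 bp.

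Members, lists and named genes were chosen with earlier results of these data known. Gene spans and promoters came from RefSeq (GRCm38.p6); protein sequences were not used here, so members were not split by KRAB domain or finger number. After TMM scaling (factors of 0.954 to 1.05), edgeR 4.0.16 in R 4.3.3 was used with 1 mean per group, robust quasi-likelihood and two-sided F tests, with filterByExpr (no peak removed) and Benjamini-Hochberg adjustment over all peaks at 0.05. Common biological coefficient of variation was 0.142. TMM factors enter the CPM, and 2 was the prior count of log2 CPM. Levels were matched to other gene-end peaks in log2 CPM bins of 0.5 with at least 20 peaks. Replicates of a group differed beyond counting error (chi-square per degree of freedom 2.28 to 7.66), so none were merged.

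Same-numbered CB and CC libraries of a genotype correlated at 0.21 to 0.52 in deviations from group means (6 pairs), which was taken as pairing. Across genotypes the range was -0.01 to 0.40, so numbers were not treated as pairs there. Named peaks were, per contrast, the called members of smallest p, 1 per gene (up to 10 lower and 5 higher for genotype, 5 per direction for CC against CB in WT, 3 in HOMO and for the difference), the nearest uncalled 2 where under 2 were called, and the strongest peak of 16 fixed genes. Alternatives were DESeq2 1.42.0, limma 3.58.1, other scalings, filters, covariates, windows and left-out libraries. Tests were checked on simulated data. Python 3.11.15, numpy 2.4.6, pandas 2.3.3 and matplotlib 3.10.9 served for tables and figures.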

Additional observations from a re-analysis of the deposited data

How the results depend on the processing

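The median log2 fold change of Zfp peaks kept its sign under each alternative in CB (-0.19 to -0.15) and in CC (-0.15 to -0.10), and so did the median less level (-0.08 to -0.03), whereas the counts of calls moved; the cause was not tested. In CB, the count called lower (41) was 84 with log2 library total as a covariate, 68 without both HOMO libraries numbered 1, 23 without both WT libraries numbered 2, and 7 to 54 on leaving out 1 library. The count called higher (0) was 1 with DESeq2 size factors, with library totals alone, with DESeq2 and without both HOMO libraries numbered 1, 3 with the depth covariate, and 0 to 3 on leaving out 1 library. In CC, the count called lower (28) was 47 with DESeq2, 72 with the depth covariate, 65 without both HOMO libraries numbered 1, 3 without both WT libraries numbered 2, 18 for the strongest peak per gene, and 1 to 49 on leaving out 1 library. The count called higher (0) was 1 with cyclic loess and 2 with DESeq2 or the depth covariate. A block on the replicate number ties same-numbered HOMO and WT libraries together, although numbers were not treated as pairs across genotypes. In that fit 99 peaks were lower and 6 higher in HOMO CB, and 78 lower and 3 higher in HOMO CC.

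CC against CB in HOMO (8 called) gave 15 with the depth covariate, 4 without both HOMO libraries numbered 1, 3 for the strongest peak per gene, 44 with the replicate block of genotype and number, and 3 to 10 on leaving out 1 library. In WT (2 called) it gave 14 with the depth covariate, 4 with DESeq2, 1 with limma, 4 and 0 without HOMO 1 and WT 2 libraries, 57 with the block, 1 and 6 in windows of 500 and 2000 bp, 1 for the strongest peak per gene, and 0 to 4 on leaving out 1 library. The difference of effects had 0 calls in each alternative run.

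Of 32 called values of named peaks, each kept its direction, and 672 of 761 alternatives kept the call. Some alternatives could not change a call, such as the run without a filter, since the filter removed no peak. Only 8 of the 32 calls held under every left-out library. Uncalled values near 0 changed sign in CB: Zfp281 to -0.02 with the depth covariate and -0.03 without both WT 2 libraries, Zfp809 to 0.02 without both HOMO 1 and 0.06 without both WT 2 libraries. In CC, Zfp335 was at -0.04 without both HOMO 1 libraries. On leaving out 1 library the CB values ran from -0.06 to 0.18 for Zfp281, -0.03 to 0.13 for Zfp143, -0.09 to 0.02 for Zfp207, -0.10 to 0.06 for Zfp809 and -0.21 to 0.08 for Zfp335, and the CC value of Zfp335 from -0.04 to 0.11. The lowest count of any member in any library was 5, so no fold change rests on a count of 0.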
